A study of Mus musculus with 18 samples.

Results

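A set of 9 genes that hepatocytes around the central vein express under the control of Wnt signalling were followed in mouse liver, namely *Lgr5*, *Znrf3*, *Axin2*, *Tbx3*, *Glul*, *Oat*, *Slc1a2*, *Rhbg* and *Lect2*. They were picked by symbol from a table of 15052 genes, and all 9 were found in it. Liver RNA had been sequenced in 18 mice of 4 groups, namely 4 WT and 5 *Apoe* KO mice that were pair-fed and 5 WT and 4 *Apoe* KO mice that were EtOH-fed. WT mice were C57BL/6J, and *Apoe* KO mice carried the purchased whole-body knockout of *Apoe*, which encodes the lipoprotein component apolipoprotein E. The labels list all mice as females, 10 to 12 weeks old. After 5 days on a liquid diet, the EtOH-fed groups received the diet with 5% (v/v) ethanol for 10 days, then 5 g/kg ethanol by gavage on day 11, and livers were taken 9 h later. Pair-fed mice received an isocaloric diet for 10 days and a gavage of 9 g/kg dextrin-maltose.

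The liver lobule is organised along the flow of blood from the portal triad to the central vein, and hepatocytes at both ends carry out different work. Endothelial cells of the central vein and neighbouring sinusoids secrete Wnt ligands and R-spondins, which stabilise beta-catenin in the nearest hepatocytes and turn on a pericentral program. That program includes the capture of ammonium as glutamine, whereas periportal hepatocytes make urea, and several of its genes feed back on the Wnt receptors themselves.

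The values were read counts brought by the authors to almost equal totals per mouse and rounded, and 1 unit below means 1 unit of that scale. Totals ran from 32267493 to 32292618 per mouse, and the spacing of low values put the reads on genes at 5.6 to 52.25 M in the 15 mice where it could be resolved. *Apoe* was at 611230 to 798431 units in the 9 WT mice and at 8586 to 108651 units in the 9 *Apoe* KO mice. EtOH-fed *Apoe* KO mouse 1 stood apart from its label, with 826 units of the female-specific *Xist* against 15227 to 30379 in the other 17 mice and 1077 units of the Y-linked *Ddx3y* against 2 to 118. Results that use this mouse were therefore also computed without it. Albumin and other defining hepatocyte genes were abundant in every group, and 7 of the 8 hepatocyte markers were in the table with summed values of 2143941 to 3859123 units per mouse.

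The clearest differences among the 9 genes were between EtOH-fed and pair-fed *Apoe* KO mice. *Lgr5*, *Glul*, *Lect2* and *Znrf3* fell and *Rhbg* rose, whereas *Oat*, *Axin2* and *Slc1a2* had nearly the same means on both diets. Called genes, which are those with a Benjamini-Hochberg adjusted p under 0.05 by limma, numbered 5 of 9 here. Over all 15052 genes 23.2% were called, 6.92% of them lower and 16.3% higher. In each of the 5 called genes the values of the 4 EtOH-fed mice did not overlap with those of the 5 pair-fed mice, a pattern seen in the lower direction in 6.01% and in the higher direction in 14.0% of all genes. The median log2 fold change of the 9 genes was −0.33, beside 0.13 over all genes. Without EtOH-fed mouse 1 the same 5 genes were called. In whole liver, fewer cells of a type and less RNA per cell cannot be told apart.

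**Figure D1:**
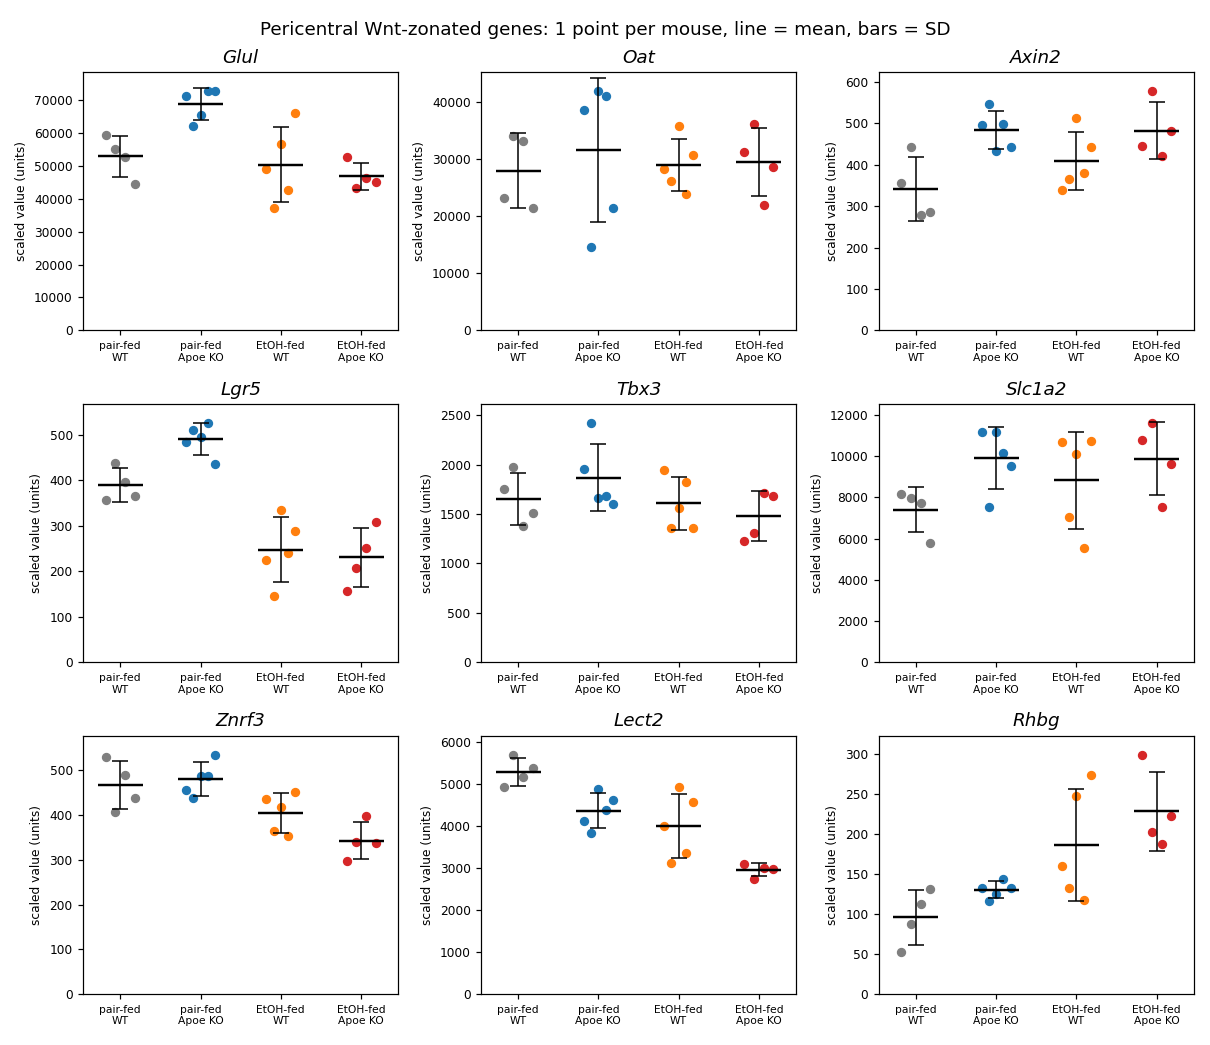
Scaled value of each of the 9 pericentral genes (vertical axis, units, starting at 0) in the 4 groups, with 1 point per mouse, the mean as a horizontal line and the SD as bars. *Lgr5*, *Glul*, *Lect2* and *Znrf3* lie lower in all 4 EtOH-fed *Apoe* KO mice than in all 5 pair-fed *Apoe* KO mice, and *Rhbg* lies higher.

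In WT mice 1 of the 9 genes was called between diets, *Lgr5*, which was lower in EtOH-fed mice, where 12.7% of all genes were called and 6.52% were called lower. The median log2 fold change of the 9 genes was −0.04, beside −0.01 over all genes. Between genotypes none of the 9 genes was called in pair-fed mice, where limma called 1.73% of all genes, and 5 of the 9 had an unadjusted p under 0.05, as did 19.9% of all genes. None was called in EtOH-fed mice either, where limma called 4.69% of all genes, and 1 of the 9 (*Lect2*) had an unadjusted p under 0.05, as did 18.9% of all genes. The interaction of diet and genotype, which tests whether the diet effect differed between *Apoe* KO and WT, was also called for none of the 9 genes by limma, against 2.84% of all genes. In it 1 of the 9 (*Glul*) had an unadjusted p under 0.05, as did 16.3% of all genes. A change called in *Apoe* KO mice alone is therefore not shown to differ between the genotypes.

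**Figure D2:**
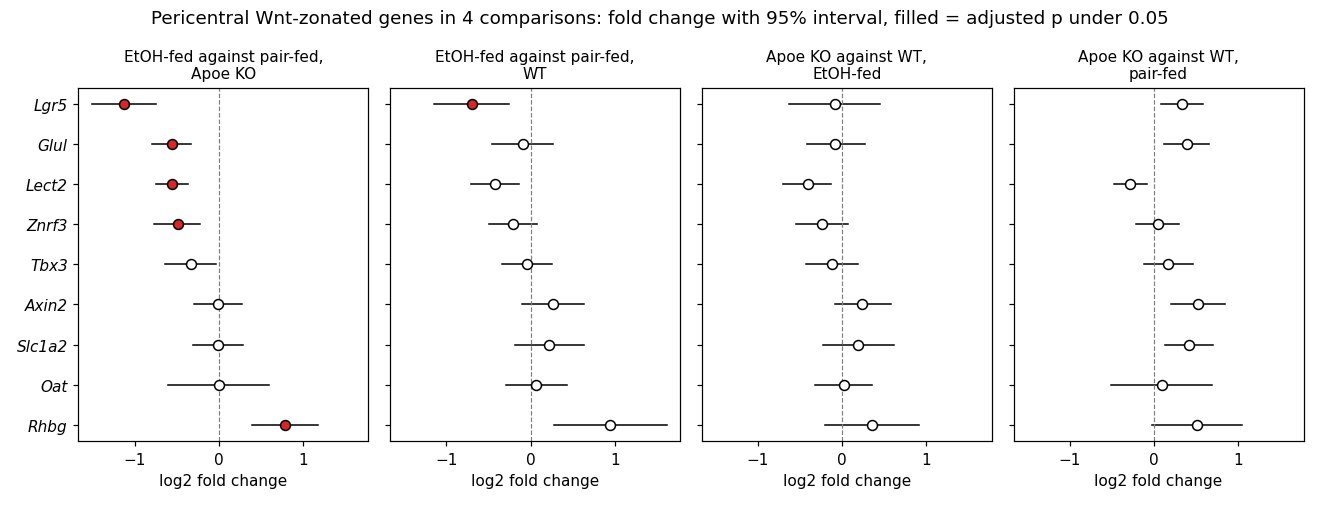
Log2 fold change (horizontal axis) of the 9 genes in the 4 comparisons between groups, with the 95% interval of limma as a line and a filled point where the adjusted p was under 0.05. In all, 5 points are filled for the diets in *Apoe* KO mice, from −1.13 for *Lgr5* to 0.79 for *Rhbg*, 1 is filled for the diets in WT mice and none is filled for the genotypes.

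Of the 9 genes, 3 act on Wnt signalling itself. *Lgr5* (chr10:115450311-115587780, minus strand, GRCm38) encodes a receptor for R-spondins that raises the response to Wnt. Pair-fed *Apoe* KO mice had 485, 510, 496, 526 and 435 units of it, and EtOH-fed *Apoe* KO mice had 156, 208, 250 and 308 units. Every EtOH-fed value lay under every pair-fed value, and the lowest belonged to mouse 1. *Lgr5* was 2.19-fold lower in EtOH-fed *Apoe* KO mice (log2 fold change −1.13 ± 0.18 SE, limma adjusted p = 0.00072), and the log2 fold change was −0.95 without mouse 1. Pair-fed WT mice had 357, 438, 396 and 366 units and EtOH-fed WT mice had 224, 146, 335, 240 and 289 units. These groups did not overlap either, as was true, in the lower direction, of 6.96% of all genes, and the fall was 1.62-fold (log2 fold change −0.70 ± 0.21 SE, limma adjusted p = 0.0416). That call was lost when any 1 of 7 of the 9 WT mice was left out, with log2 fold changes of −0.83 to −0.53 over the 9 fits and adjusted p-values up to 0.114. The diet effect in *Apoe* KO minus that in WT mice was −0.42 on the log2 scale, with an interval of −1.01 to 0.17 (interaction, limma adjusted p = 0.494). Between genotypes the log2 fold change of *Lgr5* was 0.33 in pair-fed mice (limma adjusted p = 0.138) and −0.09 in EtOH-fed mice (limma adjusted p = 0.898).

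*Znrf3* (chr11:5276324-5444847, minus strand) encodes a ubiquitin ligase that removes Wnt receptors from the cell surface and is held in check by R-spondins bound to LGR receptors. It had 455, 438, 488, 488 and 535 units in pair-fed *Apoe* KO mice and 297, 339, 397 and 338 units in EtOH-fed *Apoe* KO mice. The highest EtOH-fed value lay under the lowest pair-fed value, and *Znrf3* was 1.40-fold lower (log2 fold change −0.49 ± 0.13 SE, limma adjusted p = 0.014). In WT mice the values were 530, 408, 490 and 439 units on the pair-fed diet and 437, 364, 417, 353 and 452 units on the EtOH diet. These groups overlapped, and the log2 fold change was −0.21 with an interval of −0.49 to 0.08 (limma adjusted p = 0.343). The genotypes differed by 0.05 on the log2 scale in pair-fed mice and by −0.24 in EtOH-fed mice, and neither was called.

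*Axin2*, a scaffold of the complex that degrades beta-catenin and a widely used readout of Wnt activity (chr11:108920349-108950783, plus strand), did not share that pattern. Its values were 497, 547, 434, 498 and 444 units in pair-fed *Apoe* KO mice and 446, 578, 422 and 481 units in EtOH-fed *Apoe* KO mice. The ranges nearly coincided, and the log2 fold change was −0.01 with an interval of −0.29 to 0.27 (limma adjusted p = 0.961). Pair-fed WT mice had 357, 444, 278 and 286 units, and EtOH-fed WT mice had 339, 365, 513, 381 and 444 units. Pair-fed WT had the lowest mean of the 4 groups, 341 ± 77.2 units (SD, n = 4) against 484 ± 45.9 units in pair-fed *Apoe* KO mice (SD, n = 5). That genotype difference was 0.52 on the log2 scale, and a single pair-fed WT mouse reached the *Apoe* KO range (limma adjusted p = 0.0885).

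*Tbx3* (chr5:119670669-119684724, plus strand) encodes a T-box transcription factor that is switched on by beta-catenin in pericentral hepatocytes. It had 1956, 2422, 1663, 1684 and 1601 units in pair-fed and 1222, 1310, 1711 and 1680 units in EtOH-fed *Apoe* KO mice. The groups overlapped, and the log2 fold change of −0.33 (interval −0.64 to −0.03) did not pass the test (limma adjusted p = 0.109). It passed with size factors taken as medians of ratios, an alternative scaling that moves the median of all genes from 0.13 to 0.00 (log2 fold change −0.46, limma adjusted p = 0.0243). In WT mice, values of 1757, 1972, 1377 and 1508 units on the pair-fed diet and of 1949, 1361, 1557, 1824 and 1361 units on the EtOH diet covered nearly the same range.

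Another 4 of the genes handle ammonium, glutamine, glutamate and ornithine. *Glul* encodes glutamine synthetase, which joins ammonium to glutamate and is confined to the layers of hepatocytes next to the central vein (chr1:153899944-153909723, plus strand). Pair-fed *Apoe* KO mice had 71177, 62047, 65539, 72680 and 72593 units of *Glul*, and EtOH-fed *Apoe* KO mice had 52655, 43083, 46416 and 45113 units. The groups were separated by a gap, and *Glul* was 1.47-fold lower in EtOH-fed *Apoe* KO mice (log2 fold change −0.56 ± 0.11 SE, limma adjusted p = 0.00244). Pair-fed WT mice had 59340, 55084, 52602 and 44429 units, and EtOH-fed WT mice had 48937, 37245, 56648, 42623 and 65894 units. The EtOH-fed WT values enclosed all pair-fed WT values, and the log2 fold change was −0.09 with an interval of −0.46 to 0.27 (limma adjusted p = 0.763). Pair-fed *Apoe* KO mice were thus the highest of the 4 groups, and all 5 lay over all 4 pair-fed WT mice. That genotype difference was 0.39 on the log2 scale and did not pass the test (limma adjusted p = 0.117), and groups without overlap were found, in the higher direction, for 4.01% of all genes in that comparison. The diet effect in *Apoe* KO minus that in WT mice was −0.46 on the log2 scale (interval −0.88 to −0.05), which did not pass the adjusted test either (limma adjusted p = 0.246).

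*Rhbg* encodes an ammonium transporter of the Rhesus family and moved opposite to *Glul* in *Apoe* KO mice. It had 133, 116, 125, 144 and 133 units in pair-fed and 299, 203, 188 and 223 units in EtOH-fed *Apoe* KO mice. All EtOH-fed values were higher, mouse 1 had the highest, and *Rhbg* rose 1.73-fold (log2 fold change 0.79 ± 0.18 SE, limma adjusted p = 0.00771), or by 0.65 on the log2 scale without mouse 1. WT mice had 52, 88, 112 and 131 units on the pair-fed diet and 160, 133, 247, 118 and 274 units on the EtOH diet. EtOH-fed WT mouse 4 alone overlapped with the pair-fed mice, and the log2 fold change of 0.95 ± 0.31 (SE) did not pass the test (limma adjusted p = 0.0607). The pair-fed WT value of 52 units stood for about 9.0 reads. *Rhbg* lies at chr3:88242874-88254709 on the minus strand, and 1190 of its exon bases are shared with the annotated gene *Gm38392*. Whether strand was used in counting was not stated, so the reads of both genes cannot be told apart. Smaller stretches of exon were also shared with other annotated genes in *Glul* and *Axin2* (209 bases each), *Slc1a2* (189) and *Tbx3* (115).

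*Oat* encodes ornithine aminotransferase, which turns ornithine into a precursor of glutamate (chr7:132557478-132576398, minus strand). It spread more widely within groups than the other 8 genes did in pair-fed *Apoe* KO mice, with 38605, 14665, 41883, 41003 and 21328 units there and 31262, 36196, 21923 and 28626 units in EtOH-fed *Apoe* KO mice. Mice 2 and 5 of the pair-fed group were low and the other 3 lay close together. The log2 fold change between diets was close to 0, with an interval of −0.60 to 0.60 that leaves room for a change in either direction. WT mice had 23141, 34050, 33063 and 21475 units on the pair-fed diet and 28202, 26212, 35825, 23824 and 30701 units on the EtOH diet, with a log2 fold change of 0.07 (limma adjusted p = 0.83).

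*Slc1a2* (chr2:102658659-102790784, plus strand), a carrier that takes up glutamate, had 11181, 7545, 11157, 10179 and 9518 units in pair-fed and 10786, 11622, 7516 and 9609 units in EtOH-fed *Apoe* KO mice. The ranges matched closely, with a log2 fold change of −0.01 (interval −0.31 to 0.29). Values in pair-fed WT mice were 8182, 7955, 7709 and 5801 units and in EtOH-fed WT mice 10683, 7041, 10099, 5566 and 10736 units. Pair-fed WT mice tended to the low side, and the genotype difference in pair-fed mice was 0.42 on the log2 scale (limma adjusted p = 0.113). It passed the test when pair-fed *Apoe* KO mouse 2, the lowest of its group, was left out (log2 fold change 0.51, limma adjusted p = 0.0431).

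*Lect2* encodes a protein secreted by hepatocytes and is a target of beta-catenin in liver. It lies at chr13:56542464-56548502 on the minus strand of GRCm38. The 250 bases before its RefSeq start (chr13:56548539-56548788, minus strand, GRCm38.p6) are shown because they hold a match to the core letters bound by TCF/LEF factors, the DNA-binding partners of beta-catenin, beside a gene that fell with the EtOH diet in *Apoe* KO mice. Capitals mark the match, written 5′ to 3′ on the strand of the gene.
*Lect2*: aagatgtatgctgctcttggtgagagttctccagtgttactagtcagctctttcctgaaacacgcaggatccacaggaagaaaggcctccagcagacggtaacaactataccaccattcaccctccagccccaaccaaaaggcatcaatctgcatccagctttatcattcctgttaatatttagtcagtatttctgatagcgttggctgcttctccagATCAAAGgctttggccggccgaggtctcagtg

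The search was for CTTTGAT and its reverse complement ATCAAAG on both strands, and the match in *Lect2* spans bases −32 to −26 from the start. Windows were found for 5 of the 9 genes (*Glul*, *Slc1a2*, *Oat*, *Axin2* and *Lect2*), of which those of *Lect2* and *Slc1a2* held these letters, as did 3.21% of 32851 windows of the same length. In *Slc1a2*, which was not called in either comparison of diets, the match lay at bases −207 to −201. That window (chr2:102706188-102706437, plus strand) lies inside the gene, before a RefSeq start downstream of the gene's first base. It overlaps exon bases of *Slc1a2* itself, unlike the window of *Lect2*. The match is a description of the letters and not a measured site.

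Pair-fed WT mice had the highest *Lect2* values of the 4 groups, 4921, 5697, 5158 and 5379 units. Pair-fed *Apoe* KO mice had 4121, 3840, 4877, 4377 and 4627 units, all lower than pair-fed WT, as in 3.02% of all genes, with a log2 fold change of −0.28 that did not pass the test (limma adjusted p = 0.124). EtOH-fed *Apoe* KO mice had 3107, 2738, 2997 and 2980 units, all lower than every mouse of the other 3 groups. *Lect2* was 1.47-fold lower in them than in pair-fed *Apoe* KO mice (log2 fold change −0.56 ± 0.09 SE, limma adjusted p = 0.000808). EtOH-fed WT mice lay between with 4004, 3125, 4925, 3359 and 4559 units, of which only mouse 3 reached the pair-fed WT range. The diet effect in WT mice, −0.42 ± 0.13 (log2, SE), was just outside the threshold (limma adjusted p = 0.0529). It passed in the fit on all 4 groups (limma adjusted p = 0.0162). Between the genotypes on the EtOH diet, *Lect2* was the only 1 of the 9 genes whose groups did not overlap, which happened in the lower direction in 1.0% of all genes. The log2 fold change of −0.41 ± 0.13 (SE) did not pass the test (limma adjusted p = 0.0983), and did with median-of-ratios size factors (log2 fold change −0.54, limma adjusted p = 0.0364).

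The 9 genes spanned a wide range of abundance. Per kilobase of exon and averaged over the group means, *Glul* was the highest with 16458 units, rank 88 among 15040 genes with a length. It was followed by *Oat* (12488 units per kilobase), *Lect2* (4518), *Slc1a2* (686), *Tbx3* (249), *Rhbg* (82.7), *Axin2* (77.9), *Znrf3* (53.7) and *Lgr5* (33.1), at rank 10910. Neighbours whose ranges over the 18 mice overlapped were *Glul* and *Oat*, *Rhbg* and *Axin2*, *Axin2* and *Znrf3*, and *Znrf3* and *Lgr5*. Within single mice *Glul* exceeded *Oat* in 17 of 18, *Rhbg* exceeded *Axin2* in 9 of 18 and *Znrf3* exceeded *Lgr5* in all 18. With the group means taken off, correlations of log2 values over the 18 mice were positive for 28 of the 36 pairs of the 9 genes, from −0.48 to 0.71 with a median of 0.31. All points share the scaling of their library, and no test was made of them.

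The genes of the table whose log2 values followed each of the 9 most closely over the 18 mice were looked up as a description. *Glul* was closest to *Ces1b* (Pearson r = 0.903), to *Notum* (r = 0.874), a secreted Wnt inhibitor and pericentral gene, and to *Cyp7b1* (r = 0.86). *Lgr5* was closest to *Sult2a8* (r = 0.883), *Phlda1* (r = 0.88) and *P2ry1* (r = 0.879). *Lect2* was closest to *Nlrp6* (r = 0.934), *Clec2d* (r = 0.926) and *Scarf1* (r = 0.922). *Rhbg* was closest to *Bsg* (r = 0.898), *Znrf3* to *Amotl2* (r = 0.891) and *Slc1a2* to *Ankrd33b* (r = 0.858). *Oat* was closest to *Lhpp* (r = 0.818), itself a pericentral gene, *Tbx3* to *2810459M11Rik* (r = 0.807) and *Axin2* to *Spint2* (r = 0.773). Once group means were taken off, the closest genes were others for 8 of the 9, for example *Tuba4a* for *Glul* (r = 0.917) and *Aldh4a1*, an enzyme of proline breakdown, for *Oat* (r = 0.9), and *2810459M11Rik* stayed the closest to *Tbx3*.

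Other targets and inhibitors in the Wnt pathway were counted from a list of 14 genes, of which 11 were in the table. Between the diets in *Apoe* KO mice, 3 of the 11 fell and 1 rose, where 6.92% of all genes were called lower and 16.3% higher. The ligase *Rnf43*, the partner of *Znrf3*, fell by 0.65 on the log2 scale (limma adjusted p = 0.00887), *Notum* fell by 0.49 (limma adjusted p = 0.0102) and the receptor *Tnfrsf19* fell by 0.66 (limma adjusted p = 0.0465). *Dkk3*, a secreted protein of the Dickkopf family, rose by 1.14 (limma adjusted p = 0.00399). *Nkd1*, an intracellular inhibitor, had a log2 fold change of 0.14 (limma adjusted p = 0.703), and the list's median was 0.09 beside 0.13 over all genes. Without mouse 1 the lower calls numbered 2. In WT mice *Dkk3* was the single call of the 11 (log2 fold change 0.82, limma adjusted p = 0.0301), while *Rnf43* had −0.23 and *Notum* −0.05. With the mouse number of the labels as a block none of the 11 was called in WT mice.

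Of 14 listed Wnt ligands, R-spondins and factors that secrete Wnt proteins, 11 were in the table, and 4 of these rose, 7 did not pass the test and none fell between the diets in *Apoe* KO mice. The list's median log2 fold change was 0.37, beside 0.13 over all genes, of which 16.3% were called higher and 6.92% lower. *Wnt2*, made by sinusoidal and central vein endothelium, had 22 to 42 units (median 41) in pair-fed and 102 to 158 units (median 114.5) in EtOH-fed *Apoe* KO mice, a log2 fold change of 1.73 ± 0.28 (SE, limma adjusted p = 0.000867). *Wnt9b*, of central vein endothelium, had 10 to 30 and 57 to 223 units, a log2 fold change of 2.55 ± 0.44 (SE, limma adjusted p = 0.00128). Both were low in pair-fed *Apoe* KO mice, where 1 read stood for up to 3.79 units in the 4 mice that could be resolved. In EtOH-fed *Apoe* KO mice 1 read stood for up to 4.09 units. *Rspo3*, the main R-spondin of the central vein, had 167 to 250 and 332 to 627 units, a log2 fold change of 1.1 ± 0.2 (SE, limma adjusted p = 0.00173). The fourth was *Wnt5a*, named because the count is small (log2 fold change 1.24, limma adjusted p = 0.00328). In WT mice *Wnt9b* rose by 1.29 (limma adjusted p = 0.0381), and *Wnt2* (0.81) and *Rspo3* (0.73) had positive fold changes that did not pass. Pair-fed WT mice had 49 to 90 units of *Wnt2*, 17 to 39 of *Wnt9b* and 235 to 351 of *Rspo3*. EtOH-fed WT mice had 74 to 244, 51 to 158 and 333 to 732 units. *Wnt2* was thus lower in all pair-fed *Apoe* KO than in all pair-fed WT mice, as were 3.02% of all genes, and was not called. With median-of-ratios size factors 2 of the 11 were called higher in WT mice, and with the mouse number of the labels as a block none was called.

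Endothelial markers moved with the ligands. Of 12 markers of sinusoidal and central vein endothelium, 9 rose in EtOH-fed against pair-fed *Apoe* KO mice and none fell. Their median log2 fold change was 1.27, beside 0.13 over all genes, of which 16.3% were called higher. The sum of these 12 markers is used below. Their summed level was 4041 to 5705 units in pair-fed and 7529 to 12701 units in EtOH-fed *Apoe* KO mice, and 7 of 12 rose in WT mice, from 5297 to 6181 units to 7251 to 9860 units. Per 1000 units of that sum, *Wnt2* had 5.44 to 8.65 units in pair-fed and 12.3 to 14.6 in EtOH-fed *Apoe* KO mice, without overlap. *Rspo3* had 34.4 to 58.5 and 40.1 to 57.6 units, and *Wnt9b* 1.90 to 7.02 and 6.41 to 17.6, both with overlap. In WT mice the ratios of *Wnt2*, *Rspo3* and *Wnt9b* all overlapped between diets. That of *Wnt9b* was 3.14 to 6.99 in pair-fed and 6.80 to 16.9 in EtOH-fed WT mice. Stellate cell markers (5 of 8) and macrophage markers (4 of 8) also rose in EtOH-fed *Apoe* KO mice, with none lower, and their part in the results for the 9 genes was not tested.

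The summed hepatocyte markers were 2873401 to 3859123 units in pair-fed and 2199039 to 3094650 units in EtOH-fed *Apoe* KO mice, and 1 of the 7 (*Fgb*, a fibrinogen chain) was called lower. Per 1000000 units of that sum, *Lgr5* had 132 to 183 units in pair-fed and 67.2 to 115 units in EtOH-fed *Apoe* KO mice, still without overlap. *Rhbg* had 30.1 to 50.1 and 65.6 to 136 units, also without overlap. *Glul* (16078 to 25294 and 13922 to 23945 units), *Lect2* (995 to 1626 and 885 to 1413 units) and *Znrf3* (114 to 170 and 110 to 145 units) overlapped on this scale. The sum is dominated by a few very abundant secreted proteins, which themselves varied between mice.

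**Figure D3:**
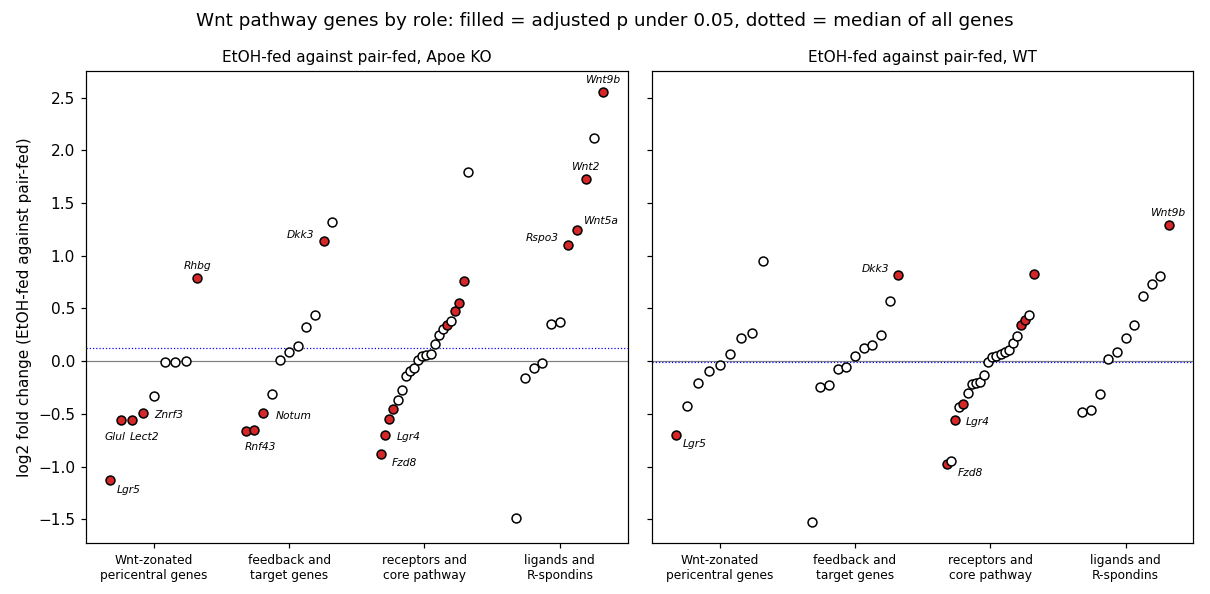
Log2 fold change between EtOH-fed and pair-fed mice (vertical axis) in *Apoe* KO mice (left) and WT mice (right), with 1 point per gene, for the 9 pericentral genes, 11 other feedback and target genes, 22 receptors and core components and 11 ligands and R-spondins. Filled points passed the adjusted test and the dotted line is the median of all genes. In *Apoe* KO mice the filled points among ligands are all positive, up to 2.55 for *Wnt9b*, and those among the 9 genes are negative except for *Rhbg*.

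Receptors and core components were divided. Of the 22 listed, 4 fell and 4 rose between the diets in *Apoe* KO mice, with a median of 0.06 beside 0.13 over all genes. Over all genes 6.92% were called lower and 16.3% higher. *Lgr4*, the relative of *Lgr5* found throughout the lobule, fell by 0.70 (limma adjusted p = 0.000513), and the Frizzled receptors *Fzd8* and *Fzd4* fell by 0.88 (limma adjusted p = 0.00425) and by 0.55 (limma adjusted p = 0.00593). The transcription factor *Tcf7l1* (0.76), the co-receptor *Lrp5* (0.55) and the kinase *Csnk1a1* (0.34) rose. With median-of-ratios size factors 5 were called lower and 2 higher. *Ctnnb1*, which encodes beta-catenin, had 3429 to 4681 units in pair-fed and 3895 to 5895 units in EtOH-fed *Apoe* KO mice, and its log2 fold change was 0.16 (limma adjusted p = 0.384). In WT mice 3 fell, among them *Fzd8* (−0.97) and *Lgr4* (−0.56), and 3 rose.

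Pericentral genes beyond the 9 did not share 1 direction. Of 20 listed, 7 fell and 6 rose in EtOH-fed against pair-fed *Apoe* KO mice, and 5 fell and 3 rose in WT mice. *Rgn*, encoding regucalcin, fell by 1.18 in *Apoe* KO mice (limma adjusted p = 9.34e-06) and by 1.07 in WT mice (limma adjusted p = 7.44e-05). *Cyp2e1*, the ethanol-oxidising cytochrome of pericentral hepatocytes, had 255301 to 342807 units in pair-fed and 118964 to 174913 units in EtOH-fed *Apoe* KO mice and fell by 1.07 (limma adjusted p = 0.000476). In WT mice it had 178002 to 242506 and 131500 to 171496 units, with a log2 fold change of −0.51 (limma adjusted p = 0.0656). *Gulo* (−0.79) and *Slco1b2* (−0.76) also fell in *Apoe* KO mice. The glutathione transferases *Gstm3*, *Gstm1* and *Gstm2*, close copies that may share reads, rose by 2.18, 0.95 and 0.89, and *Cyp1a2*, a cytochrome P450 of drug metabolism, rose by 0.44 (limma adjusted p = 0.0173) and in WT mice by 0.76 (limma adjusted p = 0.041). The list's median was −0.19 in *Apoe* KO mice, beside 0.13 over all genes, of which 16.3% were called higher and 6.92% lower. In WT mice 931 of all genes were called higher and 981 lower. With median-of-ratios size factors 9 were called lower and 5 higher in *Apoe* KO mice, and 3 lower and 3 higher in WT mice.

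Calls among periportal genes were mostly higher in EtOH-fed mice of both genotypes. In *Apoe* KO mice this was also true of all genes, of which 16.3% were called higher and 6.92% lower. With median-of-ratios size factors the periportal calls in *Apoe* KO mice split into 4 higher and 3 lower. Of the 19 of 20 listed genes that were in the table, 5 rose and 1 fell (*Hsd17b6*, −0.79) between the diets in *Apoe* KO mice. Their median was 0.01, beside 0.13 over all genes. In WT mice 5 rose and none fell, with a median of 0.44 beside −0.01 over all genes. Over all genes 931 were called higher and 981 lower in WT mice. *Gldc*, of glycine cleavage, rose by 0.97 in *Apoe* KO (limma adjusted p = 0.000394) and by 1.20 in WT mice (limma adjusted p = 0.0027). The urea cycle genes *Cps1* and *Arg1* rose by 0.82 and 0.58 in *Apoe* KO mice, and *Cps1* and *Asl* rose by 1.12 and 0.81 in WT mice. In *Apoe* KO mice the log2 fold changes of the periportal *Cyp2f2* (0.01), *Hal* (close to 0) and *Gls2* (0.19) were small and did not pass. With those size factors the list's median was −0.12.

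**Figure D4:**
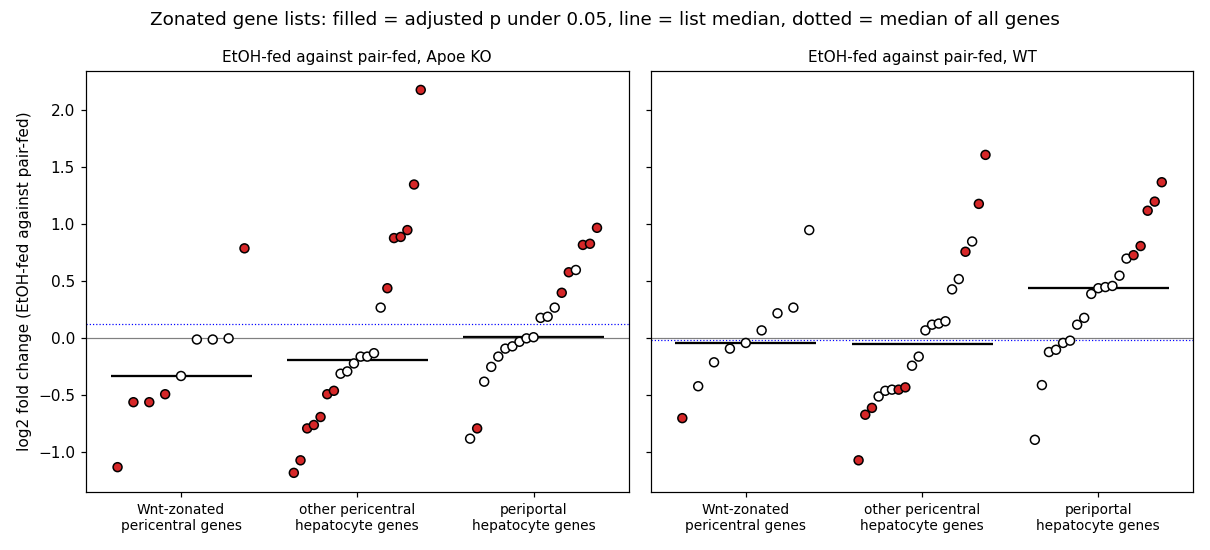
Log2 fold change between EtOH-fed and pair-fed mice (vertical axis) in *Apoe* KO mice (left) and WT mice (right), with 1 point per gene, for the 9 pericentral Wnt-zonated genes, 20 other pericentral genes and 19 periportal genes. Filled points passed the adjusted test, short lines are list medians and the dotted line is the median of all genes. The medians were −0.33, −0.19 and 0.01 in *Apoe* KO mice and −0.04, −0.05 and 0.44 in WT mice.

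Genes that handle glutamine, glutamate, ornithine and ammonium beside *Glul*, *Oat*, *Slc1a2* and *Rhbg* were counted from a list of 23, of which 20 were in the table. Between the diets in *Apoe* KO mice 8 rose and 4 fell, with a median log2 fold change of 0.35 beside 0.13 over all genes. Over all genes 16.3% were called higher and 6.92% lower. *Gpt2*, a mitochondrial alanine aminotransferase, rose by 0.85 (limma adjusted p = 0.000961), and the mitochondrial ornithine carrier *Slc25a15* rose by 0.69 (limma adjusted p = 0.00669). The aquaglyceroporin *Aqp9* fell by 0.52, glutamate dehydrogenase *Glud1* by 0.40 and *Aldh4a1* by 0.45. In WT mice 5 rose, with *Gpt2* at 1.02 and *Slc25a15* at 0.89, and *Aqp8*, a water channel that also passes ammonia, fell by 1.96 (limma adjusted p = 7.93e-05). For *Aqp8* the diet effect also differed between the genotypes, by 1.56 on the log2 scale (interaction, limma adjusted p = 0.0113). Pair-fed mice already differed, with 2818 to 5177 units of *Aqp8* in WT and 1390 to 2505 units in *Apoe* KO mice. EtOH-fed mice had 622 to 1235 units in WT and 915 to 1842 units in *Apoe* KO mice.

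Between the genotypes on the EtOH diet, where none of the 9 genes was called, 2 of the 20 other pericentral genes were higher in *Apoe* KO mice, *Cyp2a5* (log2 fold change 1.42, limma adjusted p = 0.00816) and the carrier *Slc13a3* (0.74, limma adjusted p = 0.0174). With median-of-ratios size factors the call of *Slc13a3* was lost (0.61, limma adjusted p = 0.0567). None of the 11 Wnt targets and none of the 11 ligands was called, and *Lrp5* (0.50) was the single call among 22 receptors and core components, which was lost with median-of-ratios size factors (0.37, limma adjusted p = 0.114) and without EtOH-fed *Apoe* KO mouse 1 (0.46, limma adjusted p = 0.0517), where *Fzd6* was called instead (0.81, limma adjusted p = 0.0255). All 8 macrophage markers were higher in that comparison (7 with either of those alternatives), summed to levels of 15379 to 27484 units in *Apoe* KO against 6003 to 11226 units in WT mice. In pair-fed mice *Cyp1a2* was higher (0.70, limma adjusted p = 0.0138) and *Gstm2* lower (−0.97, limma adjusted p = 0.00133) in *Apoe* KO mice. No Wnt target, ligand or receptor of the lists was called between the pair-fed groups. Of the 12 endothelial markers 1 was called lower in pair-fed *Apoe* KO mice, where 1.73% of all genes were called. The median of these markers was −0.41, beside −0.005 over all genes.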

How the data were processed

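Liver mRNA was selected by poly(A). Per the labels and the study's methods, the authors used Trimmomatic for trimming, HISAT2 for alignment to GRCm38 and featureCounts for counting. Versions, the annotation and the use of strand are not given in the sources used here. The values the authors deposited are treated as a score, namely counts per gene brought to almost equal totals per mouse and rounded. Their own DESeq2 columns (mean, fold changes, p-values) were not used. Of 15247 lines, 195 repeated a gene with identical values and were dropped. Whole reads were not recoverable for every mouse, so limma 3.58.1 (R 4.3.3, trend) was fitted to log2(value + 1), on the groups compared or, for the interaction, all 18 mice, with Benjamini-Hochberg adjustment over 15052 genes. On that scale the added 1 pulls fold changes of low genes towards 0, whereas a mouse at 0 units can enlarge them. Scripts were tested on simulated data. Each mouse was 1 replicate. The numbers in the labels were not treated as pairing mice. Gene models were the mouse GENCODE release M21, promoters RefSeq GRCm38.p6. Genes named from the lists were the 3 lowest adjusted p-values per direction among calls, plus *Cyp2e1*, *Cyp1a2*, *Rnf43*, *Nkd1*, *Notum*, *Wnt2*, *Wnt9b*, *Rspo3*, *Ctnnb1*, *Cyp2f2*, *Hal* and *Gls2*, except 1 gene that is not reported here. The 9 genes and the lists were chosen with earlier results of these data known. Lists that gave few calls are in the closing section. Alternatives were median-of-ratios size factors, pseudocounts of 0.1 and 10, a mean value of at least 50, all 4 groups in 1 fit, sample quality weights, a replicate block and leaving out each mouse.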

Additional observations from a re-analysis of the deposited data

How the results depend on the processing

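The 5 genes called among the 9 between diets in *Apoe* KO mice were called under all 16 alternatives, and *Tbx3* was called beside them under 1, the median-of-ratios size factors. Between EtOH-fed genotypes 1 of the 9 genes was called with median-of-ratios size factors and with all 4 groups in 1 fit. Those fits called 506 and 962 of all genes, against 706 as reported. When any mouse was left out, 0 of the 9 were called there, beside 327 to 620 of all genes. Between pair-fed genotypes 0 to 1 of the 9 were called without single mice, beside 73 to 670 of all genes. Between diets in WT mice 2 of the 9 were called with a pseudocount of 10, a mean value of at least 50 or sample quality weights. Over all genes those fits called 1990, 1891 and 2356, against 1912 as reported. With all 4 groups in 1 fit 3 of the 9 were called, beside 2264 of all genes. Without single mice 0 to 2 were called, beside 1186 to 1904 of all genes.

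Counts over all genes moved more. Between EtOH-fed genotypes 327 to 620 genes were called without single mice, against 706, with 327 without EtOH-fed WT mouse 1, 353 and 408 without EtOH-fed *Apoe* KO mice 4 and 5. Between pair-fed genotypes the count was 73 to 670 without single mice and 456 with weights, against 261. It was 1186 to 1904 between diets in WT mice, 2637 to 3320 in *Apoe* KO mice and 167 to 561 for the interaction without single mice. Size factors moved the split between diets in *Apoe* KO mice from 2446 higher and 1042 lower to 1656 and 1607.

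Mice with the same number were fitted as unpaired. The mean correlation of their deviations was 0.135 between EtOH-fed genotypes (lowest pair −0.0242), beside −0.0327 for mice with different numbers. In the other comparisons it was 0.0152, −0.0481 and 0.0358. With 4 pairs per comparison these values cannot settle whether the numbers pair mice. With the number as a block, 1083 genes were called between EtOH-fed genotypes, 392 between pair-fed genotypes, and 0 of the 9 genes between diets in WT mice. The block turned the sign of *Lgr5* (0.03, EtOH-fed genotypes), *Tbx3* (0.02, diets in WT), *Slc1a2* (0.04, diets in *Apoe* KO) and, in the interaction, *Oat* (0.01), *Lect2* (0.13) and *Rhbg* (0.10).

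Of 792 fitted values of the 9 genes, 726 kept direction and side of the threshold, 8 lost and 12 gained the call, and 46 small values changed sign. *Oat* between diets in *Apoe* KO mice, close to 0 as reported, ran from −0.13 with size factors to 0.13 with the block. Sign changes with weights were *Glul* 0.04 and *Lgr5* 0.01 (EtOH-fed genotypes), *Oat* −0.04 (diets, WT), *Axin2* 0.01 and *Slc1a2* 0.01 (diets, *Apoe* KO) and *Rhbg* 0.06 (interaction), and with size factors *Oat* −0.11 (EtOH-fed genotypes). Without single mice the values that crossed 0 were *Glul* (−0.18 to 0.03), *Oat* (−0.09 to 0.15) and *Lgr5* (−0.26 to 0.08) between EtOH-fed genotypes, *Oat* (−0.04 to 0.33) and *Znrf3* (−0.02 to 0.11) between pair-fed genotypes, *Glul* (−0.20 to 0.01), *Oat* (−0.05 to 0.17) and *Tbx3* (−0.12 to 0.05) between diets in WT, *Oat* (−0.25 to 0.13), *Axin2* (−0.10 to 0.05) and *Slc1a2* (−0.10 to 0.12) in *Apoe* KO mice, and *Oat* (−0.32 to 0.07) and *Rhbg* (−0.34 to 0.10) in the interaction. The causes were not tested. List counts under size factors, without EtOH-fed *Apoe* KO mouse 1 and under the block were chosen after seeing the data. Depth differed between groups, with estimated reads of 5.6 to 29.11 M in pair-fed WT and 24.63 to 52.25 M in 3 resolved EtOH-fed WT mice.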

Other observations

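Lists of other cell types not described above gave few calls. Of the 5 cholangiocyte markers 2 were lower in EtOH-fed than pair-fed WT mice, 1 was higher in EtOH-fed than pair-fed *Apoe* KO mice (2 without mouse 1), and 1, *Krt19*, a keratin of bile ducts, was 2.05 higher on the log2 scale in *Apoe* KO than in WT mice, both EtOH-fed (limma adjusted p = 0.0445), a call lost with median-of-ratios size factors (limma adjusted p = 0.0571). None of the 5 lymphocyte markers and neither of the 2 neutrophil markers in the table was called in the 4 comparisons by limma. Of the 8 macrophage markers 2 were lower in EtOH-fed than in pair-fed WT mice. On the EtOH diet the collagen gene *Col3a1* was higher by 1.75 (log2) in *Apoe* KO than in WT mice (limma adjusted p = 0.00209).

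Each of the 36 combinations of a gene of the 9 and a group was checked for a single outlying value by Dixon's gap ratio. None was flagged, where about 1.8 would be found by chance. In such small groups that check can miss mice that are low together, as with *Oat* in pair-fed *Apoe* KO mice. The 32 pairs of mice within groups correlated at 0.947 to 0.984 over all genes and shared at most 1.28% identical values.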
